A study of Homo sapiens with 2 samples.

Results

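The regions described here are the peaks on chromosomes 17 and 19 in a map of RNA recovered with GATA2. They were chosen by chromosome alone, by a rule that used neither scores nor lengths, although earlier results of these data were known. They number 228 of 2692 peaks (8.47%), with 142 on chromosome 17 and 86 on chromosome 19. The cells were K562, a human chronic myelogenous leukaemia line carrying a GATA2 transgene, and the labels do not say what drives the transgene or whether the line is 1 clone. Both libraries of the series, 1 HA immunoprecipitate and 1 input, came from cells given doxycycline (1 µg/mL, 5 hours) and 4-thiouridine (100 µM, 24 hours) and crosslinked at 365 nm with 0.3 J/cm2. The assay was a modified seCLIP, a single-end form of CLIP in which RNA joined to a protein by light is trimmed with RNase, pulled down with the protein and sequenced. The values are those of the immunoprecipitate's peak list. Input values were not analysed here, so a peak may hold RNA that was as abundant before the pull-down. With 1 library there is no replicate check of any peak, the read depth is unknown, and differences between chromosomes carry intervals for counting error only. Such intervals treat peaks as independent, which neighbouring peaks of 1 transcript are not. Positions are on hg19 and counted from 1. The score is the number the authors' file gives each peak. Its scale is not stated, and no score lies below 50.

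GATA2 controls genes in blood stem and progenitor cells and reads DNA through its zinc fingers. CLIP recovers RNA, so its reads come from transcribed sequence, and chromosomes that carry many genes offer more such sequence. Where a peak is placed also depends on how reads with several positions were treated, which is not known here. Whether gene content accounts for the densities below was not tested. Chromosomes 17 and 19 are textbook examples of gene-rich chromosomes. Chromosome 19 is known for long tandem clusters of zinc finger genes, most of which encode repressors of transcription, and chromosome 17 for blocks of duplicated sequence on both arms. K562 is aneuploid, and the copy number of each chromosome in these cells is not part of the peak list.

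Chromosome 17 carried the most peaks per Mb of any chromosome, and chromosome 19 ranked 4 among the 23 chromosomes other than Y. The density was 1.79 peaks per Mb on chromosome 17 (95% exact Poisson interval 1.51 to 2.11) over the 79.2 Mb from its first to its last peak. Chromosome 19 had 1.46 peaks per Mb (1.17 to 1.80) over 59.0 Mb. The 23 chromosomes together had 0.926, so chromosome 17 was 1.93 times and chromosome 19 was 1.57 times as dense as the list as a whole. The other 21 chromosomes ranged from 0.428 on chromosome 13 to 1.78 on chromosome 15, with a median of 0.841. The intervals of chromosomes 17 and 19 overlapped each other and that of chromosome 15 (1.51 to 2.10). Both lay above the 0.586 peaks per Mb of chromosomes 4, 8, 13 and 18 as one group, a gene-poor set of 297 peaks. Counted over windows of 1 Mb that held at least 1 peak, the excess of chromosome 17 over the list shrank to 1.22 times, since fewer of its windows were empty.

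Set against the number of genes, the picture for chromosome 19 turned round. It had 5.93 peaks per 100 protein-coding genes (4.74 to 7.32), the lowest value of the 23 chromosomes, against 13.4 over all chromosomes. Chromosome 17 had 12.1 (10.2 to 14.3) and ranked 16. The other 21 ran from 8.69 on chromosome 11 to 23.7 on chromosome 15, and the gene-poor set had 14.2. Chromosome 17 thus had 2.05 times as many peaks per protein-coding gene as chromosome 19, with intervals that did not overlap. Gene numbers came from RefSeq's GRCh38 table, which lists 1169 protein-coding genes on chromosome 17 and 1451 on chromosome 19. They were counted by chromosome only, since positions in that table are of another build than the peaks. With all 59679 genes of the table, pseudogenes and non-coding genes included, chromosome 17 had 5.23 peaks per 100 genes, above the overall 4.51, and chromosome 19 had 3.19, below it, where it ranked 21, ahead of chromosomes 13 and 22, so that it was no longer the lowest. On chromosome 17 the choice of genes therefore decided on which side of the overall value it lay, and its interval for protein-coding genes included 13.4. On chromosome 19 both choices put it below.

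**Figure D1:**
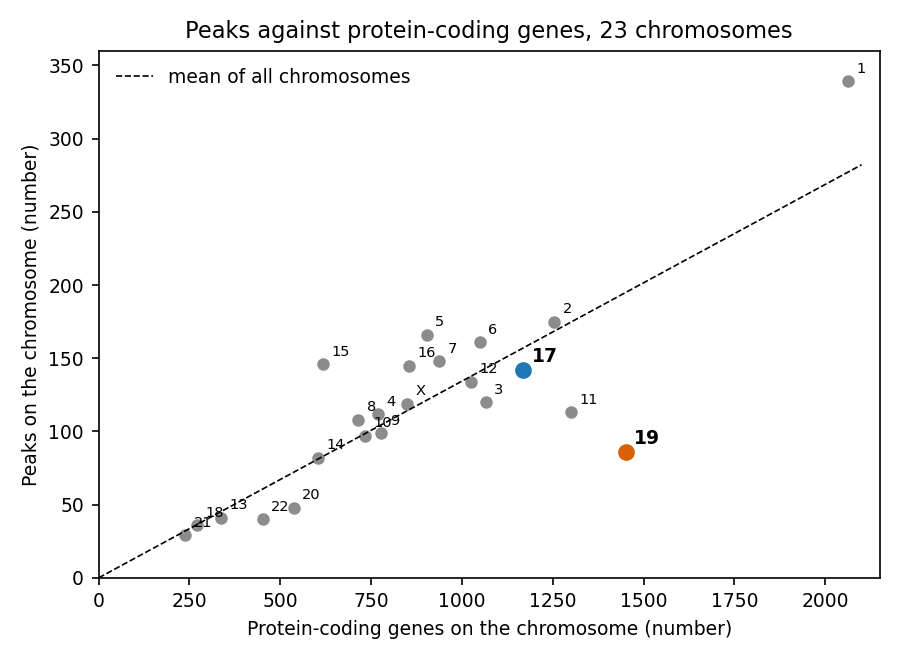
Number of peaks (vertical axis) against number of protein-coding genes (horizontal axis) for each of the 23 chromosomes other than Y, labelled by name; the dashed line is the mean of all chromosomes, 13.4 peaks per 100 protein-coding genes. Chromosome 17, with 142 peaks and 1169 genes, lies near the line, and chromosome 19, with 86 peaks and 1451 genes, lies farthest below it.

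Across the 23 chromosomes the number of peaks followed the number of protein-coding genes with a Pearson's r of 0.83 and a Spearman's rho of 0.72, and with an r of 0.91 and a rho of 0.82 over the 22 without chromosome 19. The part of chromosome size in this relation was not tested. The 2 chromosomes differ in the kind of gene they carry. In the RefSeq table, chromosome 19 holds 250 of the 517 protein-coding genes whose symbol is ZNF and a number, the zinc finger genes (48.4%), and chromosome 17 holds 11. Chromosome 17 holds 33 of 443 transfer RNA genes, and chromosome 19 holds 7. Of the 28 genes with symbols starting SNAR-, a family of short non-coding RNAs, 26 are on chromosome 19. Of the 15 genes with symbols starting SNORD3 and a letter, 5 are on chromosome 17. They encode the U3 small nucleolar RNA used in ribosome assembly. Small nucleolar RNA genes as a whole are not concentrated there: chromosome 17 holds 53 of 1199 (4.42%), beside 4.55% of all genes. Which peaks lie in which of these genes was not tested, as no annotation of hg19 was used. Gene number per window was not counted for the same reason, and no sequence is printed.

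The 2 chromosomes differed in their share of long peaks and hardly in median score. The median peak was 774 bp long on chromosome 17 (95% interval from order statistics 685 to 885 bp, quartiles 450.5 and 1171.25 bp) and 997.5 bp on chromosome 19 (838 to 1252 bp, quartiles 670.5 and 2224.25 bp). Over all 2692 peaks the median was 851 bp, which lies inside both intervals, and these overlapped. Lengths ran from 330 to 7480 bp on chromosome 17 and from 374 to 6261 bp on chromosome 19. A length of 2000 bp or more was reached by 23 of the 86 peaks of chromosome 19 (26.7%, exact binomial interval 17.8 to 37.4%), against 14.0% of all peaks, the largest share of the 23 chromosomes. On chromosome 17 it was reached by 16 of 142 (11.3%, 6.58 to 17.7%), an interval that includes 14.0%. The next share after that of chromosome 19 was 20.7%, on chromosome 16, which lies inside the interval of chromosome 19. Peaks under 500 bp showed the opposite order. They were 43 of 142 on chromosome 17 (30.3%, 22.9 to 38.5%) and 13 of 86 on chromosome 19 (15.1%, 8.30 to 24.5%). Both intervals included the 24.1% of all peaks, and they overlapped. Through the length of its peaks, chromosome 19 had 2.22 kb of peak per Mb, more than the 1.89 kb of chromosome 17, although it had fewer peaks per Mb. These values ranked 3 and 4, behind 2.62 kb on chromosome 15 and 2.39 kb on chromosome 16. The median of the other 21 chromosomes was 0.904 kb.

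The median score was 65.745 on chromosome 17 and 64.815 on chromosome 19, close to the 65.905 of the whole list. Intervals from order statistics ran from 62.25 to 72.24 and from 61.89 to 70.9. The upper end differed more. A score above 100 was reached by 29 peaks of chromosome 17 (20.4%, exact binomial interval 14.1 to 28.0%) and by 10 of chromosome 19 (11.6%, 5.72 to 20.3%), beside 16.0% of all peaks, which lies inside both intervals. A score above 200 was reached by 4 and 2 peaks, beside 2.53% of all. Without the 8 peaks of the high-scoring stretch described below, the share above 100 on chromosome 17 was 15.7%. That stretch was picked after the scores were seen. Of the 100 highest scores of the list, 8 were on these chromosomes, which hold 8.47% of all peaks. Length and score showed little relation within each chromosome, as a description over peaks of 1 library (Spearman's rho 0.03 over 142 peaks of chromosome 17 and -0.13 over 86 of chromosome 19).

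**Figure D2:**
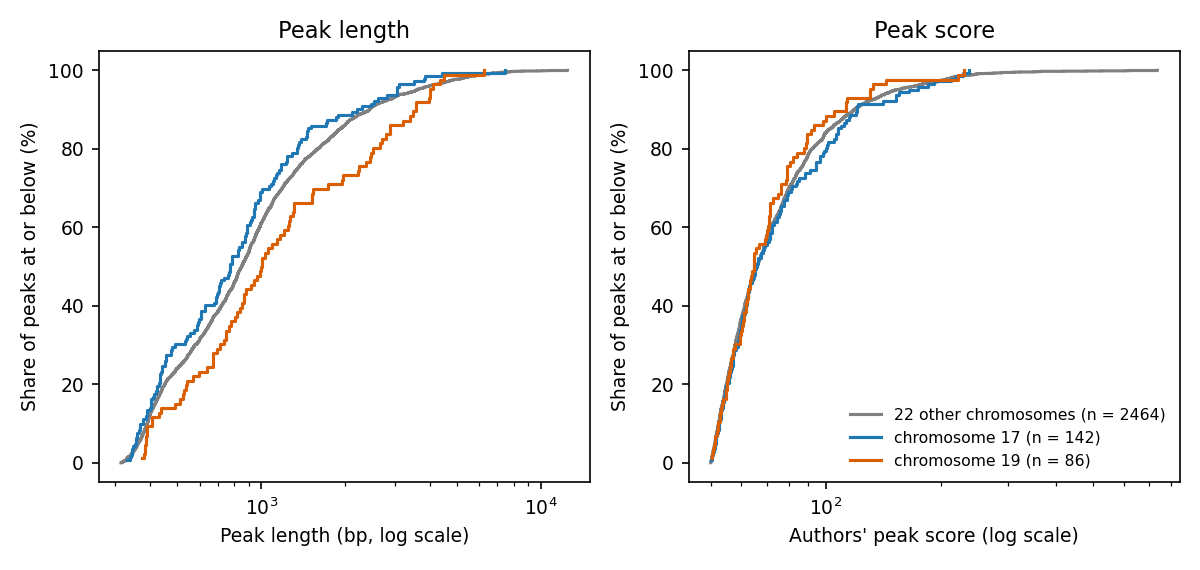
Cumulative share of peaks (vertical axis, %) by length in bp (left, log scale) and by the authors' score (right, log scale) for chromosome 17, chromosome 19 and the 22 other chromosomes. The curve of chromosome 19 runs to the right in length, with 26.7% of its peaks at 2000 bp or more against 11.3% on chromosome 17, while the score curves lie close together with medians of 64.815 and 65.745.

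Along both chromosomes, groups of peaks stood between empty windows. The variance of the count per window was 1.98 times its mean on chromosome 17 and 2.04 times on chromosome 19. These ratios ranked only 13 and 12 among the 23 chromosomes, and the highest was 8.07, on chromosome 16. Windows of 1 Mb were counted from base 1, and a peak was placed by its midpoint. Of the 80 windows from the first to the last peak of chromosome 17, 24 were empty (30.0%), the lowest share of the 23 chromosomes. Chromosome 19 had 24 empty windows of 60 (40.0%), and only chromosomes 17 and 22 had a lower share. Windows with 5 or more peaks numbered 9 on chromosome 17, where they held 52 peaks (36.6%), and 5 on chromosome 19, where they held 27 (31.4%). As a share of windows these were 11.2% and 8.33%, which rank 1 and 3 among the 23 chromosomes. Even so, the fullest windows were modest, with 9 and 6 peaks, against up to 21 on chromosomes 6 and 16. Without the 5 fullest windows of each, density over that of the list was 1.60 on chromosome 17 and 1.18 on chromosome 19, from 1.93 and 1.57. The list kept its own fullest windows, so these ratios had to fall, and the size of the fall is not a like comparison. The count of crowded windows fell when fewer peaks were kept. With only the peaks at or above the list's median score it was 2 and 0, and with only peaks of at least the median length it was 1 and 2.

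**Figure D3:**
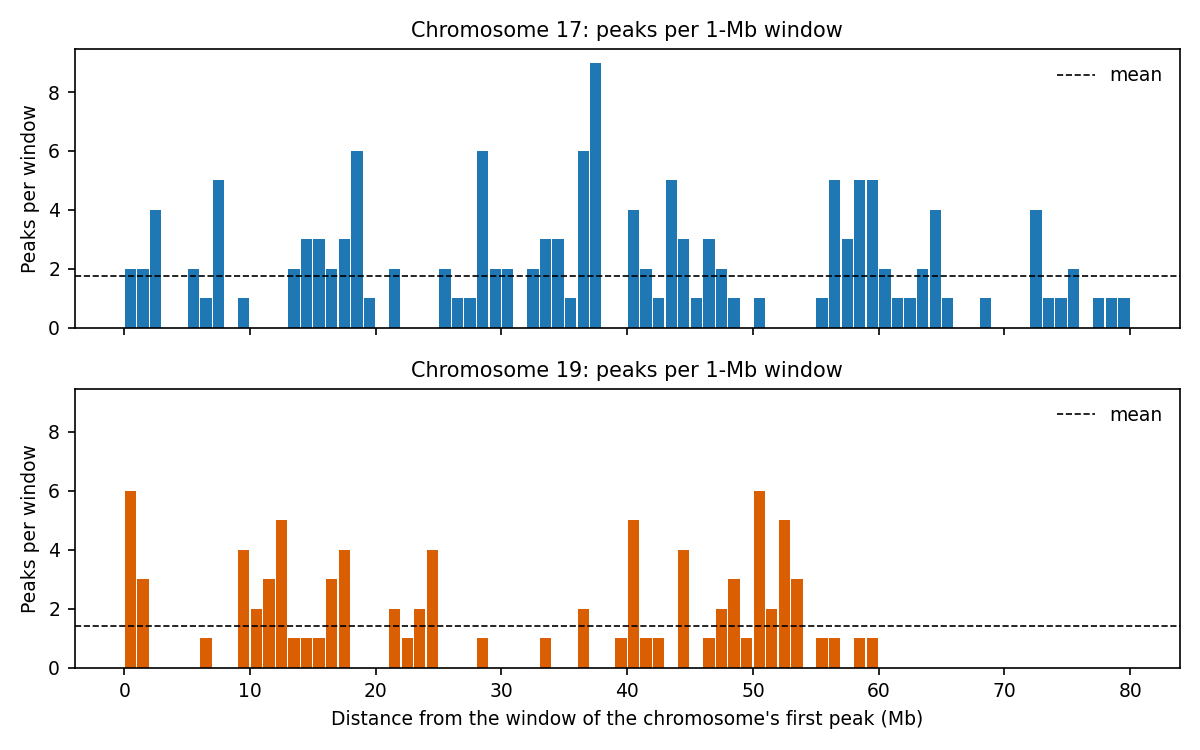
Number of peaks in each 1-Mb window (bars, vertical axis) along chromosome 17 (top) and chromosome 19 (bottom), by distance in Mb from the window of the chromosome's first peak; dashed lines are the means, 1.77 and 1.43 peaks per window. Chromosome 17 has 1 window of 9 peaks and 24 empty windows of 80, and no window of chromosome 19 exceeds 6 peaks.

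The fullest window of chromosome 17 reached from 38 to 39 Mb with 9 peaks, a median length of 1345 bp and a median score of 65.98. The window from 19 to 20 Mb held 6 peaks with a median score of 175, all of them above 100. Those from 29 to 30 Mb and from 37 to 38 Mb also held 6, with median scores of 57.76 and 84.8. Next was the first of 5 windows tied at 5 peaks, from 8 to 9 Mb. Its peaks were short, with a median of 429 bp, and 1 of them, at 8076512 to 8077215, scored 174.54. On chromosome 19 the first Mb held 6 peaks and so did the window from 50 to 51 Mb. Their median lengths were 1877.5 and 386 bp, so 2 windows with the same number of peaks held very different ones. The windows from 12 to 13, 40 to 41 and 52 to 53 Mb held 5 each, with median lengths of 1737, 1264 and 915 bp. No other window of chromosome 19 held as many.

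Long stretches without a peak alternated with these groups. The widest on chromosome 17 was 4.77 Mb, from 22023069 to 26794792, and includes the centromere by general knowledge of hg19. The widest on chromosome 19 was 5.60 Mb, from 28262848 to 33864630, on the long arm, and was followed by 4.98 Mb on the short arm from 1439323 to 6423588. The stretch around the centromere of chromosome 19, from 24311857 to 28261762, was 3.95 Mb wide. Split at the centromere, chromosome 17 had 39 peaks on the short arm (1.88 per Mb, 1.34 to 2.57) and 103 on the long arm (1.92 per Mb, 1.57 to 2.33). Chromosome 19 had 43 on each, at 1.78 per Mb (1.29 to 2.40) and 1.39 per Mb (1.01 to 1.88). Intervals of the 2 arms overlapped on both chromosomes. The first peak of chromosome 17 was at 1264940 to 1265303 and the last at 80477412 to 80478413, with scores of 120.23 and 63.08. On chromosome 19 peaks began at 131285 and ended at 59110945, and 2 of them lie past the last gene of the chromosome in the GRCh38 table, as positions of another build can.

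Scores were higher on the short arm of chromosome 17 than on its long arm. A score above 100 was reached by 16 of 39 peaks of the short arm (41.0%) and 13 of 103 of the long arm (12.6%), with medians of 76.34 and 65.32. On chromosome 19 the shares were 14.0% and 9.30%. Much of the excess lay in 1 stretch of 436 kb on the short arm of chromosome 17, described next. Without its 8 peaks, 8 of the 31 remaining peaks of the short arm (25.8%) scored above 100, and their median was 62.79, below that of the long arm. This split was chosen after the scores were seen and is given as a description.

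The high-scoring stretch of chromosome 17 ran from 18965225 to 19401084. Its 8 peaks scored 218.94, 212.11, 185.07, 191.94, 228.58, 164.93, 121.5 and 106.25 in order of position. All exceeded 100, and 6 of them were among the 8 highest scores of the chromosome. The first 5 formed 1 locus from 18965225 to 19093561, with each peak within 100 kb of the next, and contained both pairs of this stretch that lay within 1000 bp of each other. One pair was 18965225 to 18966209 and 18966765 to 18967449, with a gap of 555 bp. The other was 19091326 to 19092502 and 19092577 to 19093561, with a gap of 74 bp, the narrowest on either chromosome. Lengths recurred within the stretch. The peaks at 18965225 and 19092577 were both 985 bp long, and those at 19091326 and 19349011 were 1177 and 1176 bp long. The list held 1612 pairs of peaks that were at least 900 bp long and within 1 Mb of each other. These limits were set after the 2 pairs above were seen. Lengths within 1 bp were found in 5 of the 1612 pairs, the 2 above included. The other 3 were on chromosome 16, and chromosome 19 had 0 in 74 pairs.

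The highest score of chromosome 17 stood alone. It was 236.76, at 33477857 to 33478484, a peak of 628 bp whose nearest neighbour was 164405 bp away, and it ranked 31 in the whole list. The remaining 3 of the 10 highest were the peak at 8076512 named above, a peak of 4441 bp at 41242726 to 41247166 with a score of 155.41, and one of 1063 bp at 59667551 to 59668613 with 152.66. On chromosome 19, only 2 peaks scored above 200. One of 530 bp at 36066498 to 36067027 scored 230.07 and ranked 34 in the list. One of 1252 bp at 24009886 to 24011137 scored 221.17 and ranked 42. After them the scores dropped to 143.9 at 42012057, 132.44 at 893483, 130.29 at 12753785 and 130.08 at 9522918. The last 4 of the 10 highest were 113.47 at 17267724, 113.12 at 1021521, 113 at 52646258 and 105.14 at 47421799. No 2 of these 10 were in the same 1-Mb window, whereas on chromosome 17 a single locus held 5 of the 10.

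**Figure D4:**
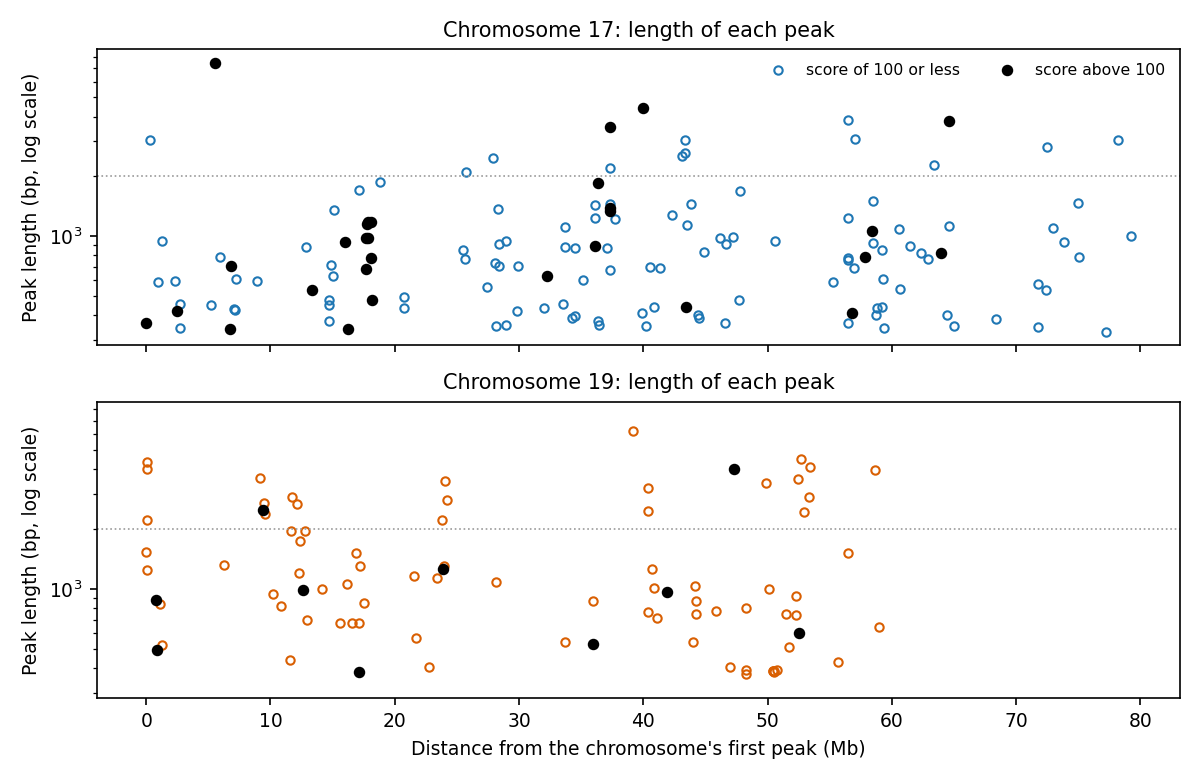
Length of each peak in bp (vertical axis, log scale) by distance in Mb from the chromosome's first peak, for chromosome 17 (top) and chromosome 19 (bottom); filled points score above 100 and the dotted line marks 2000 bp. The high-scoring stretch of chromosome 17 shows as a column of filled points below the line, and most of the 23 peaks of chromosome 19 above the line stand in a few columns.

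The long peaks of chromosome 19 were gathered in a few places. Between 9 and 13 Mb there were 14 peaks with a median of 1951.5 bp, of which 6 reached 2000 bp, and all 4 peaks between 9 and 10 Mb did, at 2369 to 3593 bp. Between 21 and 25 Mb there were 9 peaks with a median of 1252 bp, and 3 reached 2000 bp. Between 52 and 54 Mb there were 8 with a median of 2672.5 bp, and 5 did. The first 5 peaks of the chromosome, from 131285 to 230656, had a median of 2229 bp, and 3 did. Together these 4 stretches, which were picked after the lengths were seen, held 17 of the 23 long peaks of the chromosome. They held 36 of its 86 peaks. The other 50 had a median of 771 bp and 6 long peaks (12.0%), beside 14.0% of the whole list. Picking the stretches by length lowers the share of the rest, so the 2 shares are not alike. The 23 long peaks of the chromosome had a median score of 63.58, beside 65.59 for the other 63, and 2 and 8 of them scored above 100. Between 52 and 54 Mb, where 5 of 8 peaks were long, the median score was higher, at 82.58. In the other stretches it was 57.12, 62.325 and 61.89 in order of position.

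The longest peak of chromosome 19, at 39328775 to 39335035, measured 6261 bp, lay outside these stretches and scored 65.01. It was followed by peaks of 4506 bp at 52824843, 4361 bp at 194417, 4121 bp at 53569652 and 4032 bp at 47421799. The scores of these were 76.36, 61.9, 60.5 and 105.14. On chromosome 17 the longest measured 7480 bp, at 6786998 to 6794477, and scored 100.78. Next came the peak of 4441 bp at 41242726 named above, then 3855 bp at 57757911, 3820 bp at 65905776 and 3533 bp at 38554211, with scores of 52.47, 101.05 and 112.86. Of these 5 on chromosome 17, all but the one at 57757911 scored above 100, while 1 of the 5 on chromosome 19 did. The cut at 5 matters here, since no other peak of 2000 bp or more on chromosome 17 scored above 100. That made 4 of 16 such peaks, with a median score of 63.95, beside 65.745 for the shorter peaks of the chromosome. On chromosome 19 it was 2 of 23.

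At the other end, the shortest peaks of chromosome 17 were scattered. They measured 330 bp at 78515972, 339 bp at 17488782 and 342 bp at 8029063, with scores of 62.51, 140.93 and 100.14. A length under 400 bp was found in 20 peaks of chromosome 17 (14.1%) and 8 of chromosome 19 (9.30%), beside 12.4% of all. Of the 8 on chromosome 19, 7 lay between 48 and 51 Mb. The exception, 382 bp at 17267724, was among the 10 highest scores of the chromosome. The 3 shortest were 374 bp at 48410943, 380 bp at 50631398 and this one.

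Short peaks between 48 and 51 Mb of chromosome 19 lay at recurring distances. A locus of 4 peaks from 50595485 to 50631777 had lengths of 385, 384, 387 and 380 bp and scores of 79.03, 69.17, 63.46 and 91.55. Starts followed one another at 14526, 10703 and 10684 bp. Another peak, of 388 bp, lay farther on, at 50879723, with a score of 71.07. More than 2 Mb before them, peaks of 374 and 388 bp at 48410943 and 48421680 had starts 10737 bp apart, with scores of 78.72 and 53.39, and a peak of 802 bp followed at 48437440. In the whole list, 18 pairs of successive peaks were both under 400 bp with starts at most 20 kb apart. The 3 pairs just given were the only ones of these with starts 10 to 11 kb apart, a range set after they were seen. None of the 5 peaks between 50.5 and 51 Mb differed from another by more than 8 bp in length. The shortest peak of the whole list measured 314 bp, so peaks under 400 bp have little room to differ.

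**Figure D5:**
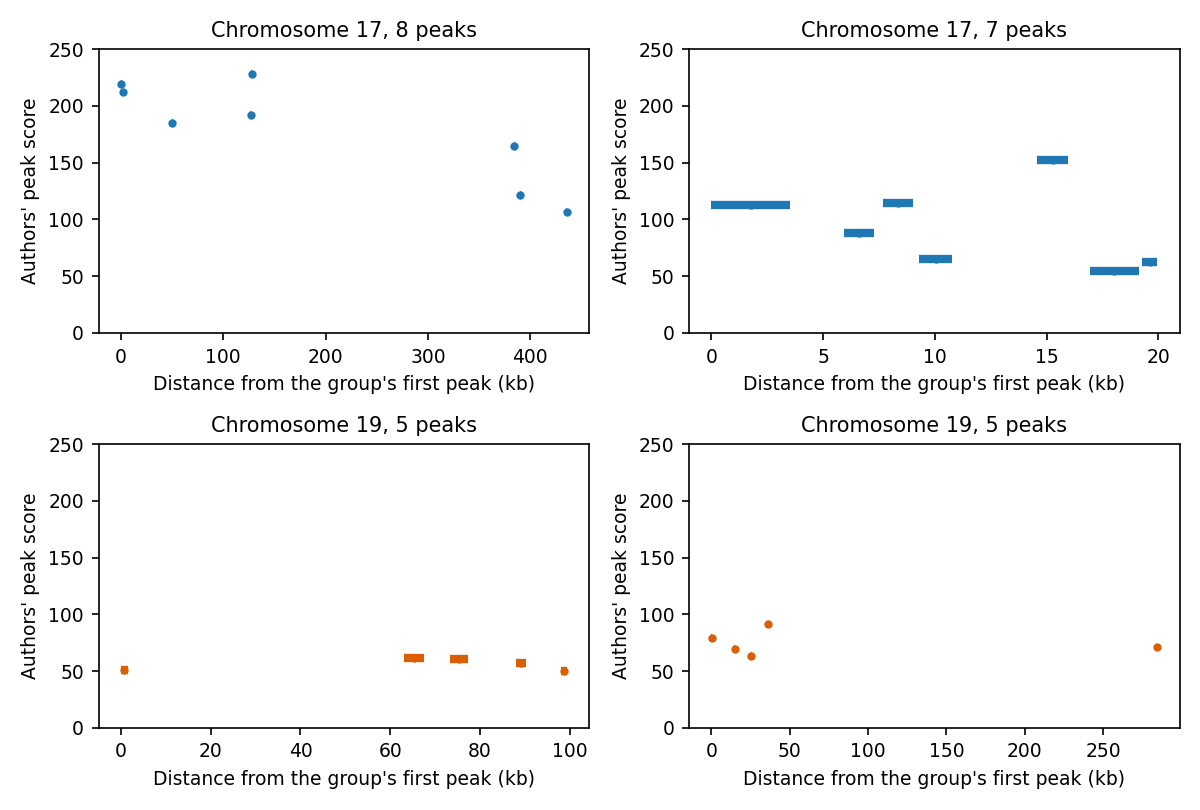
Authors' score (vertical axis) of each peak by distance in kb from the first peak of its group, with bars to scale in width and points at midpoints: the high-scoring stretch and the group of 7 peaks of chromosome 17 (top), and the first 5 peaks and the 5 short peaks between 50.5 and 51 Mb of chromosome 19 (bottom). The 8 peaks at top left score 106.25 to 228.58, and both groups of chromosome 19 stay below 100.

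Close pairs of peaks were found on chromosome 17 and not on chromosome 19. Another peak within 1000 bp was found for 19 of 142 peaks on chromosome 17 (13.4%, exact binomial interval 8.25 to 20.1%), beside 5.27% of all peaks, a share exceeded among the 23 chromosomes by that of chromosome 16. On chromosome 19 it was 0 of 86, with an upper bound of 4.20%. A further 7 chromosomes also had 0, so this does not set chromosome 19 apart. Within 10 kb the shares were 23.2% and 11.6%, beside 20.2% of all, and within 100 kb they were 57.7% and 41.9%, beside 47.2%. With peaks within 1000 bp merged, the share within 10 kb on chromosome 17 dropped to 13.0%. On chromosome 19 it was 0 with only the peaks at or above the list's median score. When peaks within 100 kb were joined, chromosome 17 had 92 loci (1.16 per Mb) and chromosome 19 had 64 (1.09 per Mb), the highest values of the 23 chromosomes. The other 21 had a median of 0.605 and a maximum of 1.00.

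Besides those of the high-scoring stretch, the close pairs of chromosome 17 lay at 5 places. The largest group was 7 peaks from 38554211 to 38574165, which covered 11.9 kb of 20.0 kb. Their lengths in order were 3533, 1340, 1345, 1458, 1385, 2204 and 679 bp, and their scores were 112.86, 87.94, 114.63, 64.89, 152.6, 54.55 and 62.56. Gaps inside it of 383, 304, 954 and 158 bp fell within 1000 bp, and higher and lower scores alternated over its first 6 peaks. A group of 5 peaks from 57738714 to 57761765 was weaker, with scores of 50.11 to 61.69 and lengths of 366 to 3855 bp, and had 1 gap under 1000 bp (785 bp). Between 37356605 and 37361218, 3 peaks of 1231, 1441 and 891 bp were parted by 352 and 699 bp and scored 81.23, 52.66 and 107.76. Long peaks of 3052 and 2619 bp at 44607815 and 44611727 were 860 bp apart, and shorter ones of 574 and 347 bp at 73030015 and 73031225 were 636 bp apart. Whether such neighbours are parts of 1 transcript or separate ones was not tested, as the list carries no strand.

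The remaining group of 4 or more peaks was at the start of chromosome 19. Its 5 peaks, from 131285 to 230656, covered 13.4 kb of 99.4 kb and scored only 50.32 to 61.9. Their lengths were 1526, 4361, 4022, 2229 and 1242 bp. All 5 lay below the median score of the list. The high-scoring stretch of chromosome 17 was picked by its scores, so that all 8 of its peaks lay above this median is no contrast. The 2 groups differed in spacing. The nearest neighbours at the start of chromosome 19 were 5846 bp apart, against 74 bp in the stretch of chromosome 17.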

How the data were processed

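The deposited file is a peak list of the immunoprecipitate with chromosome, start, end, name and the authors' score, whose scale the file does not state. Positions in bp were deposited as values counted from 0 and were written here from 1. The build was hg19 and the tools were bedtools, SAMtools, Bowtie2, cutadapt and UMI-tools (1.0.0), in no stated role, per the submitters' processing notes. Peak names start with MACS, a peak caller. How it was run, and how reads with several positions were treated, is not given in the sources used here. Scores were used only within the list.

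Members and lists were chosen with earlier results of these data known. For each chromosome the text names the 10 highest scores, the 5 longest and 3 shortest peaks, the 5 fullest windows, loci of 4 or more peaks within 100 kb, pairs within 1000 bp, the widest gap and the outermost peaks. The high-scoring stretch, long stretches, short recurring spacings and equal lengths were picked after the values were seen. Intervals are 95% (Poisson, Clopper-Pearson or order statistics) and no test across samples was possible. Functions were tested on simulated peaks. Scripts ran under Python 3.11.15 with scipy 1.17.1, pandas 2.3.3, numpy 2.4.6 and, for figures, matplotlib 3.10.9.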

Additional observations from a re-analysis of the deposited data

How the results depend on the processing

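Of the alternatives planned, 49 values stayed within the interval of the value given, or within 1.5 times of a count, and 23 moved. Some of the 49 could not move. Median lengths do not depend on the score and length limits. Merging within 1000 bp cannot change the peaks of chromosome 19, which has none that close. The count of 49 is therefore not a measure of robustness. All 36 values added after seeing the data stayed by the same rule. They left out the high-scoring stretch or the 7 crowded peaks of chromosome 17, or the first 5 or the short peaks of chromosome 19. Each left out only a few peaks, which limits how far a value could move. Even so, the most peaks in a window of chromosome 17 fell from 9 to 6 without the 7 crowded peaks. Density over that of the list moved to 1.22 (chromosome 17) and 1.15 (chromosome 19) per occupied window, and to 1.60 and 1.18 without the 5 fullest windows of each, where the list kept its own. Peaks per gene over the overall value moved from 0.904 to 1.16 and from 0.441 to 0.706 with all genes. With only the peaks at or above the list's median score, shares above 100 were 40.8% and 25.6%, windows of 5 or more peaks 2 and 0, loci 51 and 33, and the share of chromosome 19 within 10 kb was 0. With a score limit of 200 the shares were 2.82% and 2.33%. Windows of 0.5 Mb left 3 and 2 crowded windows, windows of 2 Mb gave 14 on chromosome 17, and peaks of at least the median length left 1 and 2. Merging within 1000 bp took the share of chromosome 17 within 10 kb to 13.0%. Joining within 1 Mb left 21 and 18 loci. Most of these shifts follow from the construction of the alternative, such as fewer peaks or wider windows. No paired analysis was possible because there is only 1 immunoprecipitate. Unknown depth limits every score.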

Other observations

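Some peaks shared both their exact length and their exact score with a peak elsewhere. In the list, 35 peaks fell into 17 such combinations, with 4 on chromosome 17 and 1 on chromosome 19. On chromosome 17, the peaks at 29374136 and 66253138 were both 354 bp long with a score of 93.97. The peak at 8415551 shared 423 bp and 54.34 with a peak on chromosome 1 at 174247785, and the peak at 41796483 shared 701 bp and 64.54 with one on chromosome 13 at 26086858. On chromosome 19, the peak at 16296244 shared 1059 bp and 69.53 with one on chromosome X at 49363441. How many such matches lists of this kind hold was not tested.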
